A study of Homo sapiens with 8 samples.

Results

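A set of 44 genes of T-cell receptor signalling and of thymocyte identity was followed in DND-41 and MOLT-4, a pair of human cell lines of T-cell acute lymphoblastic leukaemia (T-ALL). The genes were chosen by name, with earlier results of these data known. Each of the 44 symbols was found among the 63677 genes of the count tables through the gene names that the authors' own comparison tables pair with the identifiers. RNA sequencing was done on total RNA after 3 h of culture with ACBI-1 at 100 nM or with DMSO, the solvent. The 4 groups were ACBI-1-treated DND-41, DMSO-treated DND-41, ACBI-1-treated MOLT-4 and DMSO-treated MOLT-4 cells, with 2 libraries each. ACBI-1 is a bifunctional molecule that recruits the ubiquitin ligase subunit VHL to the chromatin remodelling ATPases SMARCA2 and SMARCA4 and to PBRM1, so that these proteins are degraded. Both lines are established leukaemia cultures, and the labels name no genetic modification in either. Whether the libraries of a group came from separate cultures is not stated, so a p-value speaks of the spread among these libraries alone, and that spread may be technical.

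The T-cell receptor binds antigen, but its signal is passed on by the CD3 chains, whose tails are phosphorylated by the kinase LCK and then bind the kinase ZAP70. ZAP70 phosphorylates the adaptors LAT and LCP2 (SLP-76), on which the lipase PLCG1 and further effectors gather, and phosphatases and adaptors such as PTPN6 and UBASH3A dampen the cascade. In the thymus the same cells assemble their receptor genes with the RAG1 and RAG2 recombinase, carry the pre-T-cell receptor chain PTCRA for a time, and show CD1, CD4 and CD8 proteins as they mature, and T-ALL cells often keep the expression of such a stage.

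Total counts lay between 19867779 and 20082524 per library, and the 44 genes together took 0.826% to 0.850% of the counts in DND-41 and 0.665% to 0.687% in MOLT-4. Levels are given as CPM, the count over the library total after scaling by the trimmed mean of M-values over all 8 libraries, with the libraries of a group in the order of their replicate numbers. Transcripts of the T-lineage genes CD3D, CD3E, CD3G, CD247 and CD7 were present in all 8 libraries, while CD2 was lower in DND-41 than in MOLT-4 and CD5 had only 23 to 44 counts per library in DND-41. The leukaemic factors matched the line names, since the homeobox gene TLX3 had 4611 to 7523 counts per library in DND-41 and at most 9 in MOLT-4, and TAL1 had at most 4 in DND-41 and 722 to 796 in MOLT-4. Of the marker lists of other cells, 6 B-cell genes summed to 1542 to 1683 CPM in ACBI-1-treated and 1680.0 to 1751 CPM in DMSO-treated DND-41 cells, nearly all of it CD79A, against at most 17.3 CPM in MOLT-4, while MS4A1, a defining B-cell gene, was at 0 in all 8 libraries. In DND-41 the 5 NK-cell genes summed to 20.4 to 22.7 CPM with ACBI-1 and 26.2 to 27.2 CPM with DMSO, nearly all of it NKG7, and NCAM1 was at 0. The 6 epithelial and fibroblast genes summed to 33.8 to 34.3 CPM with ACBI-1 and 47.2 to 57.5 CPM with DMSO there, nearly all of it PDGFRB, with EPCAM at 0. The part of these genes in the results was not tested. Erythroid and myeloid genes summed to at most 0.616 CPM in any library. In the second DMSO library of DND-41, 74 genes that mark MOLT-4 stood at a median of 0.616% of their MOLT-4 level, against a median of 0 in the other 3 DND-41 libraries. With that share subtracted the same 11 members were called in DND-41, and its size is given beside the members that are very low there.

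In DMSO the lines differed in nearly all of these genes. The test was edgeR's quasi-likelihood test over all genes with Benjamini-Hochberg adjustment, and a gene is called where its adjusted p is below 0.05. Of the 41 members that passed the filter on low counts in each line, 39 were called between the lines, 10 higher and 29 lower in DND-41, against 61.9% of the 12968 genes that did so (32.4% higher and 29.5% lower). At a mean of 5 CPM or more in each line 30 of 32 members were called, against 66.6% of genes. The median log2 difference of the 41 members, DND-41 minus MOLT-4, was -0.93, against 0.02 over those genes. PTCRA, SLAMF6 and ITM2A entered the fit of 15604 genes, of which 64.4% were called (31.6% higher and 32.8% lower), through MOLT-4 alone, and are described one by one. With 1 culture line on each side, the line cannot be told apart from its culture or library history, and in bulk RNA fewer cells with a transcript cannot be told apart from less RNA per cell.

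The CD3 chains were abundant in both lines and differed by at most 0.84 on the log2 scale. CD3E had 1429.8 and 1436 CPM in DND-41 and 1252 and 1323 CPM in MOLT-4 under DMSO, ranges that did not overlap but a difference that was not called (0.15 ± 0.08, adjusted p = 0.0947). CD3D had 449 and 479 CPM in DND-41 against 265 and 253 CPM in MOLT-4 (0.84 ± 0.07). CD3G had 292 and 270.1 CPM in DND-41 against 169 and 148 CPM in MOLT-4 (0.82 ± 0.07), and both genes were called higher in DND-41. CD247, the zeta chain, had 122 and 136 CPM in DND-41 and 159 and 152 CPM in MOLT-4 and was called lower in DND-41 (-0.28 ± 0.07). Per kilobase of exon, which allows genes to be set side by side, CD3E stood at 504 ± 1.44 CPM per kb in DND-41 and 453 ± 17.8 CPM per kb in MOLT-4 (SD, n = 2 libraries each), and CD3D at 499.7 ± 22.8 CPM per kb in DND-41 and 279 ± 8.83 CPM per kb in MOLT-4.

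PTCRA, which pairs with the first rearranged receptor chain in the pre-T-cell receptor, separated the lines. DND-41 had 1 and 0 counts with ACBI-1 and 0 and 0 counts with DMSO, and MOLT-4 had 11.96 and 14.3 CPM with ACBI-1 and 11.2 and 15.5 CPM with DMSO. Taking 3 counts per library as the upper limit of a count of 0, PTCRA was at least 90.0-fold lower in DMSO-treated DND-41 than in DMSO-treated MOLT-4 cells. The recombinase genes ran the other way. RAG1 had 619.5 and 604 CPM in DMSO-treated DND-41 and 67.4 and 100.1 CPM in DMSO-treated MOLT-4 cells (2.86 ± 0.14). RAG2 had 62.9 and 68.8 CPM in DND-41 against 12.9 and 14.5 CPM in MOLT-4 (2.26 ± 0.12). DNTT, the terminal transferase that adds bases at the joins, was low where the recombinase was high, with 19.3 and 16.2 CPM in DND-41 and 114 and 111 CPM in MOLT-4 (-2.67 ± 0.08).

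Coreceptor transcripts were low in both lines and lower in DND-41. CD4 had 5.19 and 5.25 CPM in DMSO-treated DND-41 and 18.4 and 19.7 CPM in DMSO-treated MOLT-4 cells (-1.87 ± 0.13). CD8A had 1.58 and 1.88 CPM in DND-41 against 12.5 and 13.9 CPM in MOLT-4 (-2.93 ± 0.20). CD8B had 2.77 and 2.87 CPM in DND-41 and 5.26 and 5.34 CPM in MOLT-4 (-0.91 ± 0.18), a value that is uncertain because a near-identical pseudogene can take or share its reads. Among the CD1 genes, whose proteins present lipids and mark cortical thymocytes, the order of the lines changed from gene to gene. CD1B was higher in DND-41 (1.59 ± 0.07), CD1C (-3.48 ± 0.19), CD1D (-0.94 ± 0.14; -1.61 in the ACBI-1 libraries) and CD1E (-0.93 ± 0.08) were lower, and CD1A was not called (-0.13 ± 0.09).

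Further down the pathway the 5 kinases differed by -0.96 to 0.97 on the log2 scale, DND-41 minus MOLT-4, and the 4 phosphatases by -3.33 to -0.63. LCK, the first kinase of the cascade, had 192 and 189 CPM in DND-41 and 379 and 359 CPM in MOLT-4 (-0.96 ± 0.06). FYN, the related kinase, had 218 and 227 CPM in DND-41 against 118 and 108 CPM in MOLT-4 (0.97 ± 0.07), so that the 2 kinases ranked the lines in opposite order. PTPRC (CD45), the surface phosphatase that keeps LCK active, had 53.3 and 54.0 CPM in DND-41 and 319 and 326 CPM in MOLT-4 (-2.59 ± 0.07). PTPN6 (SHP-1), an inhibitory phosphatase, had 3.51 and 3.86 CPM in DND-41 against 40.4 and 33.7 CPM in MOLT-4 (-3.33 ± 0.15). Of the 7 adaptors and effectors, 6 were called lower in DND-41, among them LAT with 4.30 and 4.16 CPM in DND-41 and 26.9 and 28.2 CPM in MOLT-4 (-2.71 ± 0.13). Another was THEMIS, which thymocyte selection needs in mice, with 8.35 and 10.9 CPM in DND-41 against 105 and 109 CPM in MOLT-4 (-3.48 ± 0.10). The exception was SLA, an adaptor that lowers receptor signalling, with 126 and 125 CPM in DND-41 and 42.8 and 38.5 CPM in MOLT-4 (1.62 ± 0.08).

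Surface receptors spanned the widest range. CD7, an early T-lineage marker, had 2257 and 2202 CPM in DMSO-treated DND-41 and 86.2 and 94.0 CPM in DMSO-treated MOLT-4 cells (4.62 ± 0.08), and at 815 ± 14.2 CPM per kb (SD, n = 2) it had the highest mean level per kilobase of the 44 members in DND-41. CD5 and CD6, related scavenger receptors that tune T-cell receptor signals, were near absent in DND-41, with 1.33 and 2.18 CPM of CD5 against 151 and 157 CPM in MOLT-4 and 1.28 and 2.13 CPM of CD6 against 96.4 and 103 CPM in MOLT-4. SLAMF6 and ITM2A had few counts in DND-41 as well, with 7 and 12 counts of SLAMF6 and 2 and 56 counts of ITM2A in its DMSO libraries. MOLT-4 had 1310 and 953 counts of SLAMF6 and 7557 and 6301 counts of ITM2A. CD44, the hyaluronan receptor, was the only surface receptor besides CD7 called higher in DND-41 (1.60 ± 0.07), with 218 and 210.3 CPM there and 73.4 and 67.2 CPM in MOLT-4.

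**Figure D1:**
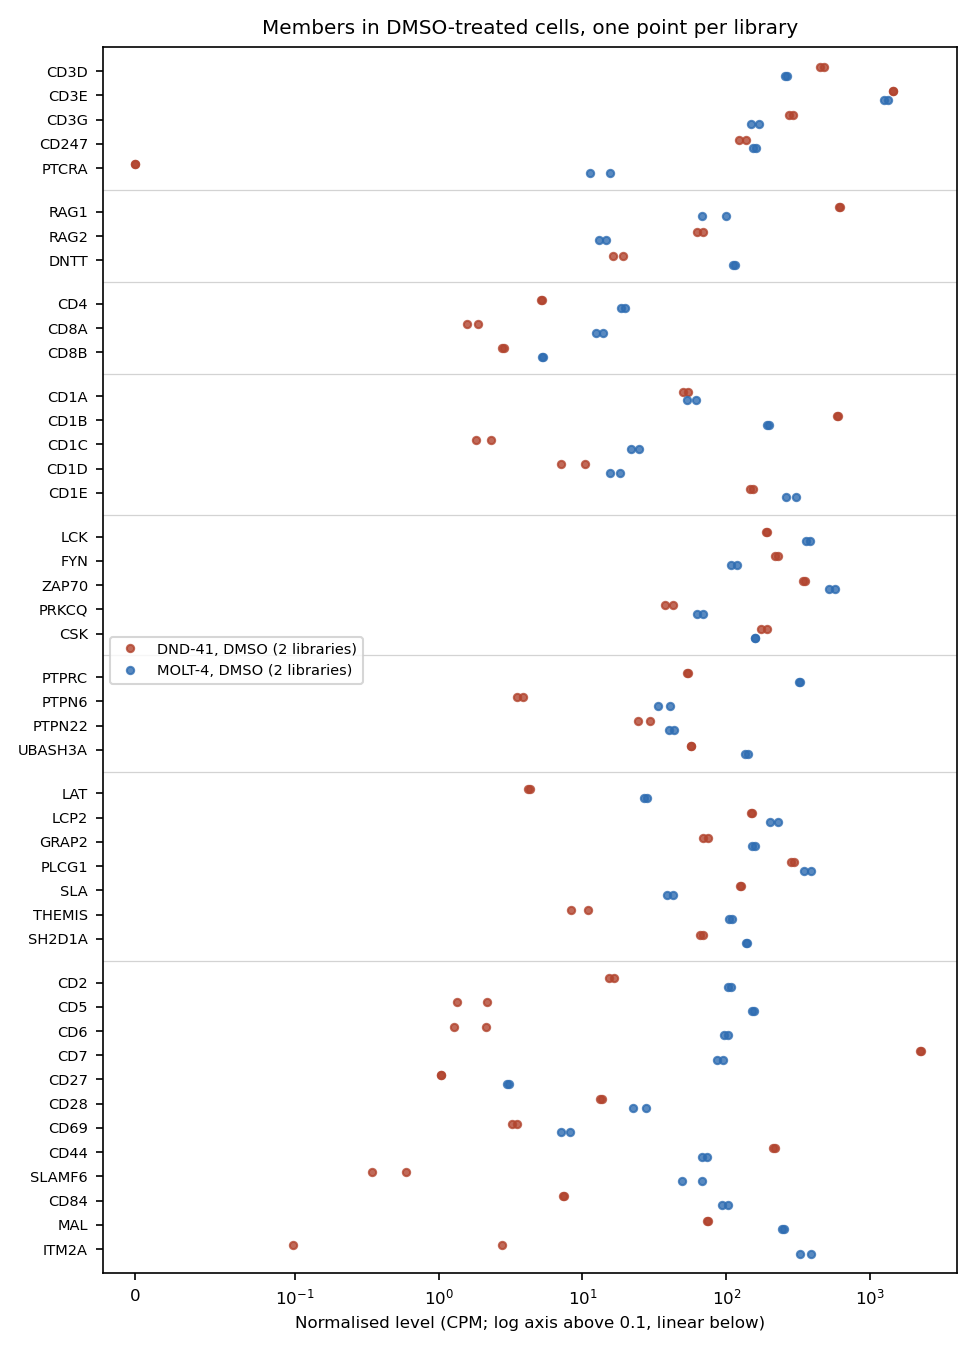
Level of each of the 44 members in the DMSO libraries, in CPM on an axis that is logarithmic above 0.1 and linear below, with 1 point per library and 2 libraries per line, grouped by role from the receptor chains at the top to the surface receptors at the bottom. CD3E lies far to the right in both lines, PTCRA is at 0 in both DND-41 libraries, and CD7 is at 2257 and 2202 CPM in DND-41 and 86.2 and 94.0 CPM in MOLT-4.

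Expressed as a share of the MOLT-4 level, the lowest DND-41 members can be set beside the 0.616% at which the MOLT-4 marker genes stood in its second DMSO library. ITM2A, a membrane protein of developing T cells, stood at 0.763% of the MOLT-4 mean in the second DMSO library of DND-41 and at 0.0272% in each of the other 3 libraries. SLAMF6 stood at 0.0630 and 0.126% with ACBI-1 and 0.441 and 0.757% with DMSO. CD5 stood at 0.905 and 1.06% with ACBI-1 and 1.06 and 1.73% with DMSO, and CD6 at 1.13 and 1.54% with ACBI-1 and 1.54 and 2.55% with DMSO. For ITM2A nearly all counts of DND-41 came from the second DMSO library, whereas SLAMF6, CD5 and CD6 also had counts in the first. The 74 marker genes were picked for low counts in the first DMSO library and both ACBI-1 libraries, and ITM2A and SLAMF6 meet that rule themselves. The markers' level in those libraries therefore cannot tell where the counts came from, which was not tested.

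**Figure D2:**
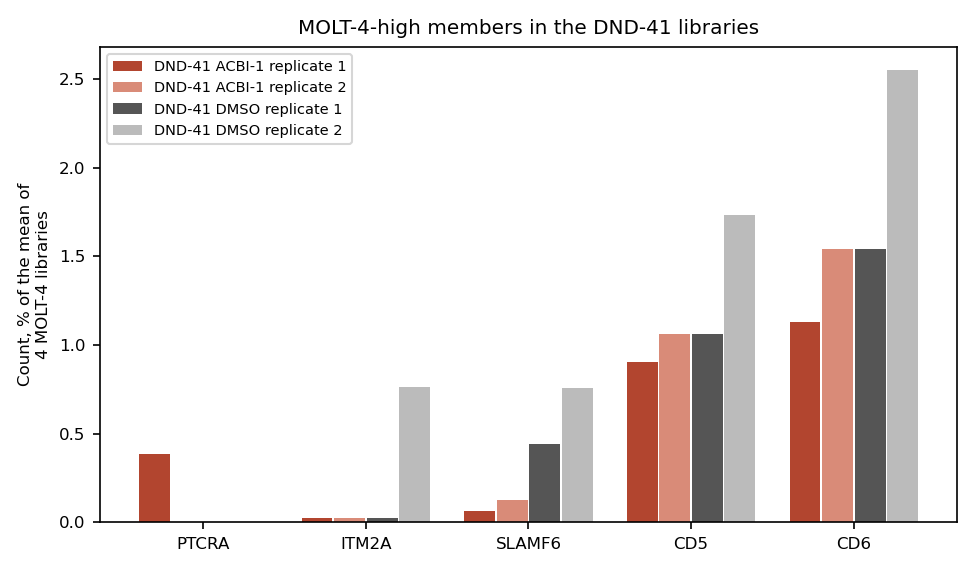
Count of 5 members that are low in DND-41 (PTCRA, ITM2A, SLAMF6, CD5 and CD6) as percent of their mean count over the 4 MOLT-4 libraries, with 1 bar per DND-41 library, ACBI-1 libraries in red and DMSO libraries in grey. ITM2A lies at 0.763% in the second DMSO library and at 0.0272% in the other 3, while SLAMF6 lies at 0.441% in the first DMSO library.

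ACBI-1 changed a minority of the 44 genes within 3 h, in both directions. In DND-41, 41 members passed the filter on low counts, and PTCRA, SLAMF6 and ITM2A did not. Of these 41, 11 were called, 4 higher and 7 lower with ACBI-1, against 9.83% of all genes tested (3.78% higher and 6.05% lower). In MOLT-4 all 44 were tested and 15 were called, 7 higher and 8 lower, against 10.8% of all genes (3.9% higher and 6.94% lower). Since abundant genes are called more often, the same counts were taken at a mean of 5 CPM or more, where 10 of 32 members against 12.3% of all genes were called in DND-41, and 15 of 43 against 13.3% in MOLT-4. The median log2 fold change of the tested members was -0.04 in DND-41 and -0.01 in MOLT-4, against 0.00 over all genes in either line. The authors' deposited table calls 5 members in DND-41 and 14 in MOLT-4, and all of these were also called by edgeR. DESeq2 on the same counts called 6 members in DND-41, without CD2, CD84, PTPN6, PLCG1 and UBASH3A, and 14 in MOLT-4, without CD7. With no filter on low counts edgeR called 0 members in either line, against 0.00765% of all genes in DND-41 and 0.143% in MOLT-4. Of the members, 13 in DND-41 and 19 in MOLT-4 then had an unadjusted p below 0.05. The matching share of all genes was not counted without the filter. With the filter it was 3000 of 14019 genes in DND-41 and 3273 of 14470 in MOLT-4. When 1 library was left out, the lone library of its group was assumed to vary like the others, and the members called in DND-41 were 0 without the first and 1 without the second ACBI-1 library, and 5 without the first and 2 without the second DMSO library. In the same order 0.0207%, 1.22%, 4.22% and 4.34% of all genes were called. In MOLT-4 they were 0 without either ACBI-1 library, with 0% of all genes called, 17 without the first DMSO library (9.53% of all genes) and 15 without the second (7.69%). In the 3 of these fits with 0 members called, hardly any gene was called, so they do not set the members apart from other genes.

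**Figure D3:**
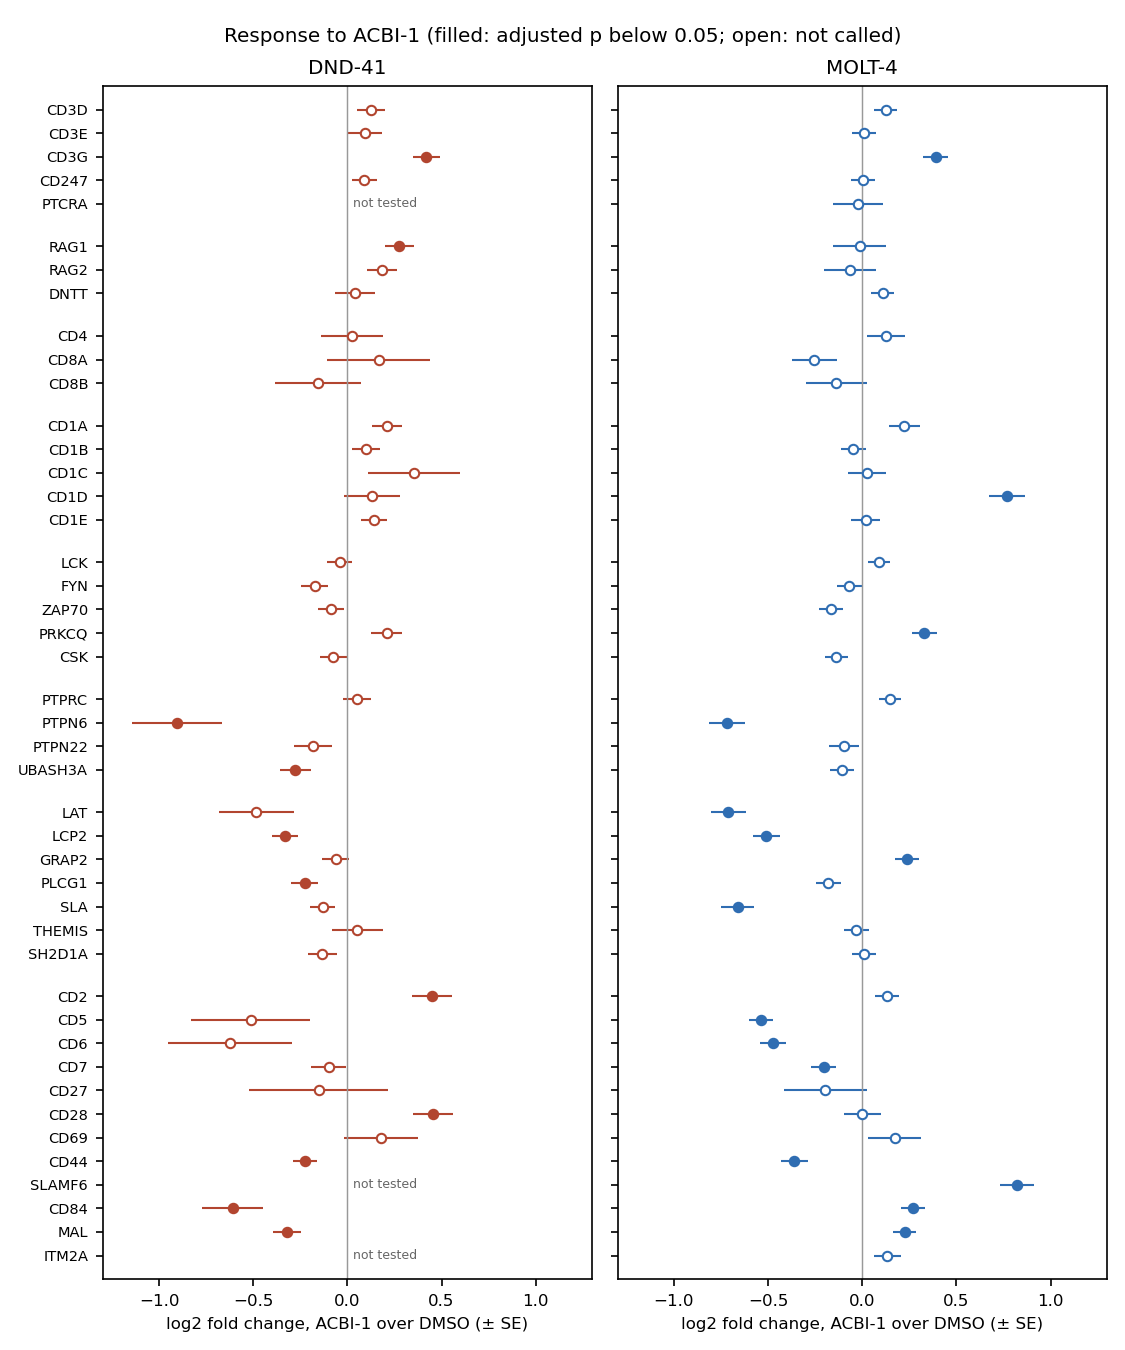
Log2 fold change of each member, ACBI-1 over DMSO, with its standard error from the edgeR fit of 2 against 2 libraries, for DND-41 and MOLT-4, filled where the adjusted p was below 0.05. SLAMF6 has the largest called rise in MOLT-4 (0.82) and PTPN6 the largest called fall in both lines (-0.90 in DND-41 and -0.72 in MOLT-4).

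Across the 41 members tested in both lines, whose fits share no library, 6 were called in both. That is 54.5% of the 11 calls in DND-41 and 42.9% of the 14 in MOLT-4. Over all genes tested in both lines these shares were 50.2% and 46.3%, close to those of the members. CD3G was higher in both lines, and PTPN6, LCP2 and CD44 were lower in both. MAL and CD84 were called in opposite directions. Among all 12968 genes tested in both lines, 4.93% were called in the same direction and 0.123%, or 16 genes, in opposite directions, and MAL and CD84 were 2 of these 16.

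The sequence around the transcription starts of the members that moved the same way in both lines is shown as context for these shared changes. RefSeq's promoter table (GRCh38.p14, 250 bases before to 50 after a start) held PTPN6, with 2 starts, LCP2 and CD44, and CD3G is not shown. The windows are chr12:6946327-6946626 (plus strand) and chr12:6951106-6951405 (plus strand) for PTPN6, chr5:170297728-170298027 (minus strand) for LCP2 and chr11:35138921-35139220 (plus strand) for CD44. Capitals mark matches, on either strand, to 8 motifs of lymphoid factors: RUNX factors (TGTGGT), factors of the GATA family (AGATAA), 2 forms of the E-box (CAGCTG, the palindrome, or CAGGTG), 2 forms of the ETS site (CCGGAA as one and AGGAAG as the other), TCF/LEF factors (TCAAAG) and RBPJ (TGGGAA). No matches overlapped.
PTPN6, first start: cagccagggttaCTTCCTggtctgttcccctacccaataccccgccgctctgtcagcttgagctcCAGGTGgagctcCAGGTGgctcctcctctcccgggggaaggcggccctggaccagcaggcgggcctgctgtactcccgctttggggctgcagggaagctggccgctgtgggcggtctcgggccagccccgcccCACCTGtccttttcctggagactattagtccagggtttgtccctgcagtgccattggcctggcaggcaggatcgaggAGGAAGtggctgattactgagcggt
PTPN6, second start: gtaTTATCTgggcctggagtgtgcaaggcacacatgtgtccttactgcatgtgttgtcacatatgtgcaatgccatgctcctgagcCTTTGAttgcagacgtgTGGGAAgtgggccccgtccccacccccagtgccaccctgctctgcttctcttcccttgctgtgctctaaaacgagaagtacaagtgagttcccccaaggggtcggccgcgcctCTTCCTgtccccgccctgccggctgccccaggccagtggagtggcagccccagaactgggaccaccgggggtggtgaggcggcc
LCP2: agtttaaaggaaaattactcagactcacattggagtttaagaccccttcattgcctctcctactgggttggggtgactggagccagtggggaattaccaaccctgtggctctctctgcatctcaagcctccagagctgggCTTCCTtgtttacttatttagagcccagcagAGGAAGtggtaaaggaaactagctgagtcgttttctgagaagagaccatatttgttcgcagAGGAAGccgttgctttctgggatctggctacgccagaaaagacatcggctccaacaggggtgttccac
CD44: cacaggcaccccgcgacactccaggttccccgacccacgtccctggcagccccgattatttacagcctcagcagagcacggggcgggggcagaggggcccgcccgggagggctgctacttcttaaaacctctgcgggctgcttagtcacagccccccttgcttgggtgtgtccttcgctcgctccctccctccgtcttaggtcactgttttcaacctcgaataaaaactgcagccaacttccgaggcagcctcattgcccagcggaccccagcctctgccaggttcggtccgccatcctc
The LCP2 window held AGGAAG 3 times, and the first PTPN6 window held CAGGTG 3 times and AGGAAG 2 times. The second PTPN6 window held 1 match each to the AGATAA motif, the AGGAAG form, the TCF/LEF motif and the RBPJ motif, and the CD44 window held none of the 8. Over the 35116 promoters of the table, 33.6% held the AGGAAG form, 24.0% the RBPJ motif, 20.6% the CAGGTG form, 17.9% the palindromic E-box, 17.2% the CCGGAA form, 13.1% the RUNX motif, 12.9% the TCF/LEF motif and 10.3% the AGATAA motif. A match is a description of the letters and not of binding, and which start the cells use was not measured.

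Among the receptor chains only CD3G was called. It had 396 and 355 CPM in ACBI-1-treated DND-41 cells, against 292 and 270.1 CPM with DMSO (0.42 ± 0.07, adjusted p = 0.000129). In MOLT-4 it had 204 and 212 CPM with ACBI-1, against 169 and 148 CPM with DMSO (0.39 ± 0.07, adjusted p = 0.000162). All 4 ACBI-1 libraries thus lay above the DMSO libraries of their own line, and the interaction of line and treatment was 0.01 ± 0.10 (adjusted p = 0.9999). CD3D, whose protein forms a dimer with CD3E as that of CD3G does, had 489 and 523 CPM with ACBI-1 and 449 and 479 CPM with DMSO in DND-41, and 286 and 279.6 CPM with ACBI-1 and 265 and 253 CPM with DMSO in MOLT-4. The CD3D ranges did not overlap in either line, but neither difference was called (0.13 ± 0.07 in DND-41 and 0.12 ± 0.06 in MOLT-4). CD3E had 1649.7 and 1408 CPM with ACBI-1 and 1429.8 and 1436 CPM with DMSO in DND-41 (0.09 ± 0.09). In MOLT-4 CD3E had 1286 and 1306 CPM with ACBI-1 and 1252 and 1323 CPM with DMSO (0.01 ± 0.07), and the groups overlapped in both lines. CD247 gave 0.09 ± 0.07 in DND-41, with 137 and 137 CPM with ACBI-1 and 122 and 136 CPM with DMSO, and 0.00 ± 0.06 in MOLT-4, with 166 and 147 CPM with ACBI-1 and 159 and 152 CPM with DMSO. For PTCRA in MOLT-4 the log2 fold change was -0.02 ± 0.13, and its ACBI-1 and DMSO libraries overlapped.

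RAG1 was called in DND-41 only, and a difference between the lines was not. DND-41 had 766 and 714 CPM with ACBI-1, against 619.5 and 604 CPM with DMSO (0.28 ± 0.08, adjusted p = 0.0165). The call was lost when both lines were fitted together (adjusted p = 0.251), and stood in 5 of 11 alternatives. With 1 library left out the log2 fold change lay between 0.22 and 0.33. MOLT-4 had 63.7 and 102 CPM with ACBI-1 and 67.4 and 100.1 CPM with DMSO (-0.01 ± 0.14). There the first replicate of either treatment lay below the second, so that the MOLT-4 groups overlapped, and the log2 fold change was -0.27 without the first DMSO library and 0.30 without the second. The interaction of line and treatment was 0.26 ± 0.19 (adjusted p = 0.839). RAG2 was not called in DND-41, at 80.8 and 68.5 CPM with ACBI-1 and 62.9 and 68.8 CPM with DMSO (0.18 ± 0.08, overlapping), nor in MOLT-4, at 10.6 and 15.8 CPM with ACBI-1 and 12.9 and 14.5 CPM with DMSO (-0.06 ± 0.14). DNTT had 17.1 and 19.3 CPM with ACBI-1 and 19.3 and 16.2 CPM with DMSO in DND-41 (0.04 ± 0.11). In MOLT-4 DNTT had 120.4 and 122 CPM with ACBI-1 and 114 and 111 CPM with DMSO (0.11 ± 0.06), and it was called in neither line.

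No coreceptor was called. CD4 had 5.42 and 5.19 CPM with ACBI-1 and 5.19 and 5.25 CPM with DMSO in DND-41 (0.02 ± 0.17). In MOLT-4 CD4 had 19.6 and 22.0 CPM with ACBI-1 and 18.4 and 19.7 CPM with DMSO (0.13 ± 0.10). CD8A had 2.14 and 1.75 CPM with ACBI-1 and 1.58 and 1.88 CPM with DMSO in DND-41 (0.17 ± 0.27). In MOLT-4 CD8A had 11.8 and 10.3 CPM with ACBI-1 and 12.5 and 13.9 CPM with DMSO (-0.25 ± 0.12), both ACBI-1 libraries there lying below the DMSO libraries. CD8B gave -0.15 ± 0.23 in DND-41, from 2.68 and 2.38 CPM with ACBI-1 and 2.77 and 2.87 CPM with DMSO, and -0.14 ± 0.16 in MOLT-4, from 4.68 and 4.97 CPM with ACBI-1 and 5.26 and 5.34 CPM with DMSO. In the CD1 family 1 gene was called. CD1D, which presents lipids to natural killer T cells, had 27.5 and 29.8 CPM in ACBI-1-treated MOLT-4 cells, against 18.1 and 15.5 CPM with DMSO (0.77 ± 0.10, adjusted p = 3.07e-06), a ratio of 1.70 with no overlap. In DND-41 CD1D had 10.4 and 8.78 CPM with ACBI-1 and 7.07 and 10.4 CPM with DMSO, which overlapped (0.13 ± 0.15), and the interaction was -0.66 ± 0.19 (adjusted p = 0.140). CD1A, CD1B, CD1C and CD1E were called in neither line, with log2 fold changes of 0.10 to 0.35 in DND-41 and -0.05 to 0.22 in MOLT-4.

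Of the 5 kinases, LCK, FYN, ZAP70 and CSK, which restrains LCK, were not called in either line. PRKCQ, the protein kinase C theta that links the receptor to NF-kappaB, had 85.5 and 80.3 CPM in ACBI-1-treated MOLT-4 cells, against 68.9 and 62.8 CPM with DMSO (0.33 ± 0.07, adjusted p = 0.00155). In DND-41 it had 44.1 and 48.0 CPM with ACBI-1 and 37.4 and 42.4 CPM with DMSO, also without overlap, but was not called (0.21 ± 0.08, adjusted p = 0.108).

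The strongest shared fall was that of PTPN6, the inhibitory phosphatase SHP-1. MOLT-4 had 24.3 and 20.8 CPM with ACBI-1, against 40.4 and 33.7 CPM with DMSO (-0.72 ± 0.09, adjusted p = 5.85e-06). In DND-41 the gene is scarce, with 33 and 47 counts with ACBI-1 against 71 and 78 counts with DMSO, or 1.64 and 2.28 CPM with ACBI-1 against 3.51 and 3.86 CPM with DMSO (-0.90 ± 0.24, adjusted p = 0.00905). No ACBI-1 library reached a DMSO library in either line, and by the edgeR fit the level was 1.87-fold lower with ACBI-1 in DND-41 and 1.65-fold lower in MOLT-4. The DND-41 call of PTPN6 was lost with DESeq2 (adjusted p = 0.106), and the authors' DESeq2 results do not call it there (adjusted p = 0.158). UBASH3A (STS-2), another negative regulator, had 42.2 and 51.4 CPM with ACBI-1, against 56.6 and 56.9 CPM with DMSO in DND-41 (-0.28 ± 0.08, adjusted p = 0.0267). Its log2 fold change was -0.14 without the first and -0.43 without the second ACBI-1 library, and its call was lost with DESeq2 (adjusted p = 0.150). In MOLT-4 UBASH3A had 132 and 125 CPM with ACBI-1 and 142 and 135 CPM with DMSO and was not called (-0.11 ± 0.06), nor were PTPRC and PTPN22 in either line.

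Of the adaptors that ZAP70 phosphorylates, LCP2 fell in both lines and LAT in MOLT-4. LCP2 (SLP-76) had 115 and 122 CPM in ACBI-1-treated DND-41 cells, against 151 and 148 CPM with DMSO (-0.33 ± 0.07, adjusted p = 0.000859). In MOLT-4 it had 162 and 139 CPM with ACBI-1, against 228 and 201 CPM with DMSO (-0.51 ± 0.07, adjusted p = 1.20e-05). LAT had 16.9 and 16.7 CPM with ACBI-1, against 26.9 and 28.2 CPM with DMSO in MOLT-4 (-0.71 ± 0.09, adjusted p = 4.35e-06). In DND-41, where LAT is rare, it had 3.03 and 3.01 CPM with ACBI-1 and 4.30 and 4.16 CPM with DMSO, with no overlap but not called (-0.48 ± 0.20, adjusted p = 0.130). PLCG1, the lipase that makes the calcium and diacylglycerol signals, was called in DND-41, with 231 and 258 CPM with ACBI-1 against 279.7 and 293 CPM with DMSO (-0.23 ± 0.07, adjusted p = 0.0340). That call stood in 4 of 11 alternatives, and was lost with total counts as the scaling (adjusted p = 0.0761). Without the first ACBI-1 library the log2 fold change was -0.15. In MOLT-4 PLCG1 had 344 and 306 CPM with ACBI-1 and 389 and 347 CPM with DMSO and was not called (-0.18 ± 0.07, adjusted p = 0.0881).

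The adaptor GRAP2 (GADS), which holds LCP2 to LAT, rose in MOLT-4 while its partners fell there. It had 193 and 170.4 CPM with ACBI-1, against 158 and 149.9 CPM with DMSO (0.24 ± 0.06, adjusted p = 0.0167). The log2 fold change was 0.15 without the first ACBI-1 library, 0.33 without the second, and 0.20 without the second DMSO library. In DND-41 GRAP2 had 68.7 and 69.3 CPM with ACBI-1 and 69.1 and 75.1 CPM with DMSO (-0.06 ± 0.07, not called). SLA fell in MOLT-4, to 28.1 and 23.4 CPM with ACBI-1, against 42.8 and 38.5 CPM with DMSO (-0.66 ± 0.09, adjusted p = 7.11e-06). In DND-41, where SLA is more abundant, it had 110.2 and 118 CPM with ACBI-1 and 126 and 125 CPM with DMSO (-0.13 ± 0.07), without overlap but not called. THEMIS and SH2D1A (SAP), an adaptor of the SLAM receptors, were called in neither line.

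Surface receptors moved both ways. CD2, an adhesion receptor, had 24.0 and 19.5 CPM in ACBI-1-treated DND-41 cells, against 16.7 and 15.2 CPM with DMSO (0.45 ± 0.11, adjusted p = 0.00444). Without the first ACBI-1 library its log2 fold change was 0.29, and its call was lost with DESeq2 (adjusted p = 0.0535). CD28, the main costimulatory receptor, had 18.1 and 18.5 CPM with ACBI-1 against 13.6 and 13.2 CPM with DMSO there (0.45 ± 0.11, adjusted p = 0.00339). In MOLT-4 CD2 had 115 and 117 CPM with ACBI-1 and 108 and 103 CPM with DMSO (0.13 ± 0.06), and CD28 had 23.9 and 26.2 CPM with ACBI-1 and 22.5 and 27.6 CPM with DMSO (-0.00 ± 0.10), neither of them called. The interaction was 0.29 ± 0.12 for CD2 (adjusted p = 0.488) and 0.43 ± 0.15 for CD28 (adjusted p = 0.309), so a difference between the lines was not called for either. CD44 fell in both lines, to 183 and 183 CPM with ACBI-1, against 218 and 210.3 CPM with DMSO in DND-41 (-0.23 ± 0.07, adjusted p = 0.0234). In MOLT-4 it fell to 56.6 and 53.0 CPM with ACBI-1, against 73.4 and 67.2 CPM with DMSO (-0.36 ± 0.07, adjusted p = 0.000810). The DND-41 call of CD44 stood in 5 of 11 alternatives and was lost with total counts as the scaling (adjusted p = 0.0560).

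In MOLT-4 the receptors CD5, CD6 and CD7 fell as well. CD5 had 103 and 109 CPM with ACBI-1, against 151 and 157 CPM with DMSO (-0.54 ± 0.06, adjusted p = 1.04e-06), and CD6 had 75.8 and 68.3 CPM with ACBI-1 against 96.4 and 103 CPM with DMSO (-0.47 ± 0.07, adjusted p = 2.08e-05). CD7 had 77.2 and 79.2 CPM with ACBI-1 against 86.2 and 94.0 CPM with DMSO (-0.21 ± 0.07, adjusted p = 0.0492). The ACBI-1 libraries lay below the DMSO libraries for all 3. CD7 lay just inside the threshold and was called in 2 of 10 alternatives, not with DESeq2's size factors (adjusted p = 0.0572), total counts (0.122) or all 8 libraries in 1 fit (0.151), and its log2 fold change was -0.14 without the second DMSO library. In DND-41 CD7 had 1992 and 2169 CPM with ACBI-1 and 2257 and 2202 CPM with DMSO and was not called (-0.10 ± 0.09). In DND-41 CD5 had only 23 and 27 counts with ACBI-1 and 27 and 44 counts with DMSO (-0.51 ± 0.32), and CD6 only 19 and 26 counts with ACBI-1 and 26 and 43 counts with DMSO (-0.62 ± 0.33), neither of them called. CD27 and CD69, a costimulatory receptor and an early activation marker, were low and were called in neither line.

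**Figure D4:**
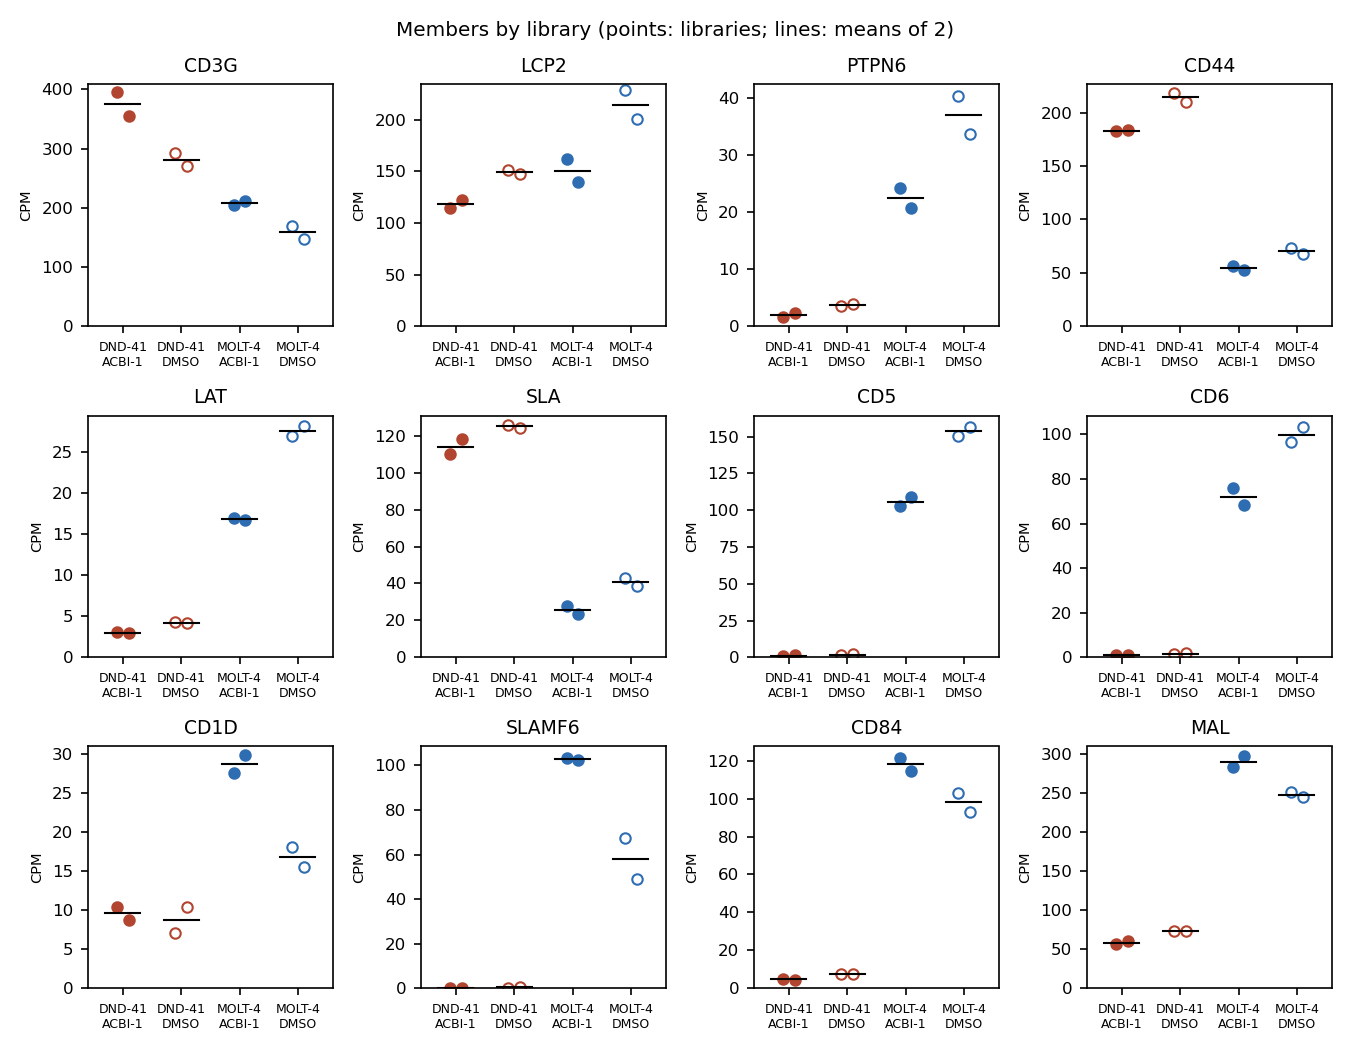
Level in CPM of 12 members called in at least 1 ACBI-1 comparison, with 1 point per library, a line at the mean of 2 libraries, and ACBI-1 libraries (filled) left of DMSO libraries (open) in each line. CD3G lies above and LCP2 below its DMSO libraries in both lines, while MAL and CD84 lie below them in DND-41 and above them in MOLT-4.

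MAL, a membrane proteolipid of T cells, had 56.7 and 60.6 CPM in ACBI-1-treated DND-41 cells, against 74.0 and 72.8 CPM with DMSO (-0.32 ± 0.07, adjusted p = 0.00273). In MOLT-4 MAL had 283 and 298 CPM with ACBI-1, against 252 and 245 CPM with DMSO (0.23 ± 0.06, adjusted p = 0.0144). Its groups overlapped in neither line, and the interaction, the DND-41 response minus the MOLT-4 response, was -0.57 ± 0.09 (adjusted p = 0.00117). CD84, a SLAM-family receptor, had 5.17 and 4.51 CPM with ACBI-1, against 7.36 and 7.42 CPM with DMSO in DND-41 (-0.61 ± 0.16, adjusted p = 0.0101). Its MOLT-4 values were 122 and 115 CPM with ACBI-1, against 103 and 93.1 CPM with DMSO (0.27 ± 0.07, adjusted p = 0.00696). For CD84 the interaction was -0.90 ± 0.15 (adjusted p = 0.00157), again with no overlap in either line. The DND-41 call of CD84 stood in 5 of 11 alternatives and was lost with DESeq2 (adjusted p = 0.110).

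Of the 41 members tested in each line, 3 had a called interaction, 1 positive and 2 negative, against 0.74% of the 12968 genes tested in each line (0.532% positive and 0.208% negative). These 3 were MAL, CD84 and SLA (0.51 ± 0.11, adjusted p = 0.0221), which fell in MOLT-4, and at 5 CPM or more in each line 3 of 32 were called, against 0.87% of genes. In the fit of all 15604 genes, of which 0.641% were called (0.442% positive and 0.199% negative), ITM2A also passed the threshold (-3.94 ± 1.37, adjusted p = 0.0423), but it entered that fit through MOLT-4 alone. Its value rests on 1 library, since DND-41 had 2 and 2 counts with ACBI-1 and 2 and 56 counts with DMSO, and without the second DMSO library the interaction was -0.16 (adjusted p = 0.9999). With the MOLT-4 share of that library subtracted it was -2.19 (adjusted p = 0.417). In MOLT-4 ITM2A had 402 and 380.3 CPM with ACBI-1 and 389.7 and 323 CPM with DMSO, which was not called (0.13 ± 0.07). SLAMF6, a further SLAM-family receptor, rose in MOLT-4 to 103 and 103 CPM with ACBI-1, against 67.5 and 48.9 CPM with DMSO (0.82 ± 0.09, adjusted p = 3.16e-07). In DND-41 it had 1 and 2 counts with ACBI-1 and 7 and 12 counts with DMSO, too few to be tested there, and its interaction was not called (-3.42 ± 1.07, adjusted p = 0.0525). It was called in 6 of 14 alternatives, among them DESeq2 (adjusted p = 0.0223), total counts (0.0452) and the replicate block (0.000144), and the adjusted p was 0.441 with the MOLT-4 share subtracted.

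A list of 63 further genes of the pathway, from membrane-near kinases to calcium entry and the NFAT factors, had more members called lower than higher with ACBI-1. This list too was chosen with earlier results of these data known. In DND-41, 2 of 60 tested genes were called higher and 10 lower, against 3.78% and 6.05% of all genes, with a median log2 fold change of -0.11. In MOLT-4, 2 of 61 were called higher and 20 lower, against 3.9% and 6.94% of all genes, with a median of -0.08. Of the 60 tested in both lines 10 were called in both, which is 83.3% of the 12 calls in DND-41 and 47.6% of the 21 in MOLT-4, against 50.2% and 46.3% over all genes. None was called in opposite directions, against the 0.123% of all genes given above. The 10 included RHOH and PTPN2, which were higher, and PTPRCAP, ORAI1, SPN, DOK1, NFATC1, PIK3CD and PIK3R1, which were lower.

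PTPRCAP, a protein associated with CD45, had 214 and 231 CPM in ACBI-1-treated DND-41 cells, against 306 and 329.6 CPM with DMSO (-0.51 ± 0.07). Its MOLT-4 levels were 127 and 108 CPM with ACBI-1, against 172 and 169 CPM with DMSO (-0.54 ± 0.07). ORAI1, the pore of the store-operated calcium channel, had 27.2 and 28.3 CPM with ACBI-1, against 40.4 and 42.3 CPM with DMSO in DND-41 (-0.57 ± 0.08). SPN (CD43; -0.41 ± 0.07) and the adaptor DOK1 (-0.53 ± 0.09) also fell in DND-41. In MOLT-4 the phosphoinositide 3-kinase subunit PIK3R1 gave -0.50 ± 0.06 and the Ras activator RASGRP2 -0.55 ± 0.09. RASGRP2 was the 1 gene of this list whose interaction was called (0.51 ± 0.11, adjusted p = 0.0206), with 64.0 and 60.1 CPM with ACBI-1 and 62.8 and 63.2 CPM with DMSO in DND-41. Its MOLT-4 levels were 24.2 and 21.4 CPM with ACBI-1 and 34.1 and 32.7 CPM with DMSO.

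**Figure D5:**
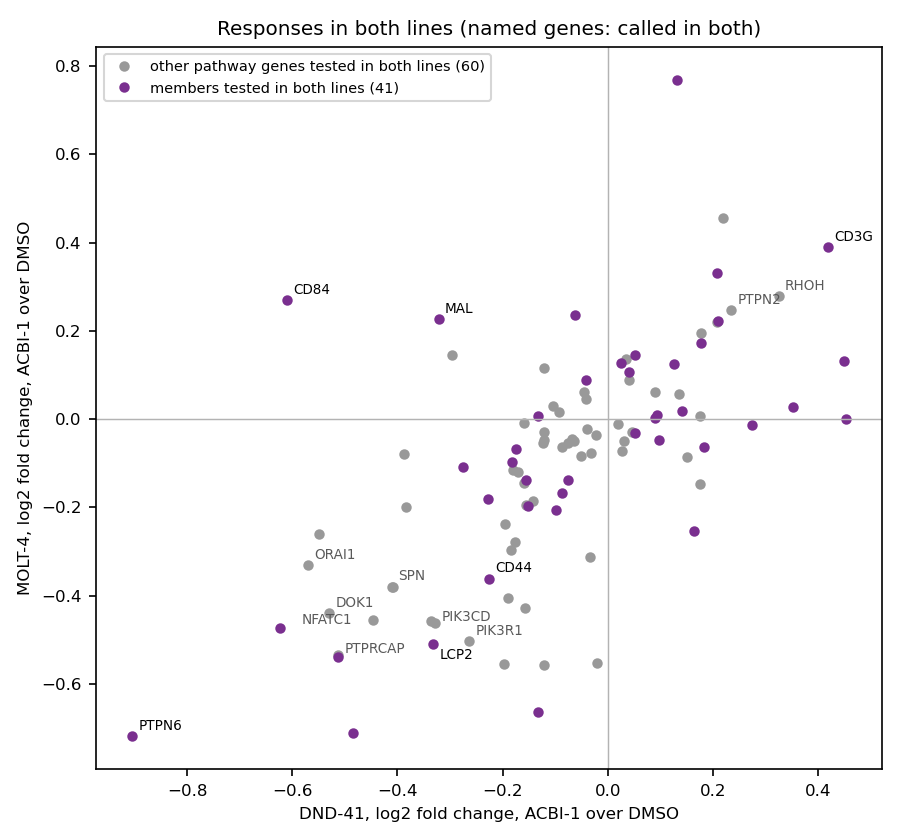
Log2 fold change, ACBI-1 over DMSO, in DND-41 (x axis) and MOLT-4 (y axis) of the 41 members and 60 other pathway genes tested in both lines, with 1 point per gene and names for genes called in both that the text names. CD3G is at the upper right, PTPN6 at the lower left, and MAL and CD84 are the named genes that are negative in DND-41 and positive in MOLT-4.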

How the data were processed

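The 8 libraries were strand-specific, made from total RNA and read as paired 100-base ends, per the labels' protocols. The authors deposited raw read counts per gene, 1 table per line, and, again per line, their DESeq2 results, which hold log2 fold changes and p-values, per the file headers. The submitters' processing notes list STAR 2.5.2a, featureCounts, DESeq2 1.12.4 and hg19 without saying what each did. Neither the annotation nor the strand option of the counting is given in these sources, so overlapping and antisense genes could not be separated. The sign of the deposited log2 fold changes was read from their correlation with the counts, and runs DMSO minus ACBI-1 in the MOLT-4 table. Libraries were grouped by their titles. No replicates agreed within sampling noise, with a chi-square per gene of 17.2 in ACBI-1-treated DND-41 cells and 3.19 to 5.58 in the other groups. Mitochondrial genes took 13.3% to 20.04% of counts, with 17.4% and 13.3% in the ACBI-1 libraries of DND-41.

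Tests used R 4.3.3 with edgeR 4.0.16 and limma 3.58.1: quasi-likelihood F-test, TMM scaling, filterByExpr, Benjamini-Hochberg adjustment over all genes tested, threshold 0.05. Each line was fitted on its 4 libraries. The interaction and the lines in DMSO came from 1 fit of all 8 libraries. Every adjusted p comes from these fits unless another tool is named. Values in brackets are log2 fold changes (prior count 0.125) with their standard error. Exact permutation was not used, since 2 against 2 libraries cannot reach 0.05 with it. A count of 0 allows up to 3 counts, counting error only. Levels per kilobase used exon lengths of GENCODE release 29 (GRCh38, not the authors' annotation). Promoters came from RefSeq (GRCh38.p14), which held 32 of the 44 members.

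The scripts were tested on simulated data. Alternatives were DESeq2 1.42.0, its size factors, total counts, no filter, the replicate number as a block, subtraction of 0.559% of the MOLT-4 level from 1 DND-41 library, 1 fit of 8 libraries, the ACBI-1 libraries for the lines, and leaving out each library. Named in full were members called for ACBI-1 or in the interaction, the CD3, recombination and coreceptor genes and PTCRA, and up to 4 other pathway genes per comparison by smallest p, except genes not reported here. The members and lists were chosen with earlier results of these data known.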

Additional observations from a re-analysis of the deposited data

Results flagged for a closer look

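Responses to ACBI-1 differed between the lines for MAL, CD84 and SLA by the interaction in edgeR, given as the DND-41 minus the MOLT-4 log2 fold change with the Benjamini-Hochberg adjusted p. MAL had -0.57 (adjusted p = 0.00117; called in 13 of 14 alternatives, with a highest adjusted p of 0.0679), from a fall in both ACBI-1 libraries of DND-41 and a rise in both of MOLT-4. CD84 had -0.90 (adjusted p = 0.00157; called in 13 of 14 alternatives, with a highest adjusted p of 0.122), with the same directions. SLA had 0.51 (adjusted p = 0.0221; called in 9 of 14 alternatives, with a highest adjusted p of 0.337), from a fall in MOLT-4 and a value of -0.13 ± 0.07 in DND-41. ITM2A also passed the threshold, with -3.94 (adjusted p = 0.0423; called in 5 of 14 alternatives), and without the second DMSO library of DND-41, which holds 56 of the 62 ITM2A counts of that line, it had -0.16. It was too low to be tested in DND-41 by itself, so a difference for it rests on that library.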

How the results depend on the processing

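In DND-41, 11 members were called, 6 with DESeq2 (4.74% of all genes), 0 with no filter on low counts and 0 to 5 with 1 library left out (0.0207% to 4.34% of all genes). In MOLT-4, 15 were called, 0 with no filter and 0 to 17 with 1 library left out (0% to 9.53%), and CD7 was lost under DESeq2. For the difference between the responses, 4 were called, 4 with DESeq2 (0.59% of all genes) and 0 with no filter (0.0431%). Only 3 were shared with DESeq2, which lost ITM2A and gained SLAMF6. The calls also moved with 1 library left out. Without the filter 9 members had an unadjusted edgeR p below 0.05. The matching share of all genes was counted only with the filter, where it was 1192 of 15604 genes. RAG1 in MOLT-4 (-0.01) lay between -0.39 and 0.30 with 1 library left out, with 0.30 (adjusted p = 0.00956) without DMSO replicate 2 and -0.27 (adjusted p = 0.0161) without DMSO replicate 1. Between the lines in DMSO, 42 were called, and 42 or 43 under every alternative that kept all libraries. The share of all genes called there ran from 32.3% with no filter to 67.5% with the replicate number as a block. With 1 library left out, CD247 and CSK could lose the call. The cause of these changes was not tested, except that leaving out a library leaves 1 library in a group. With the replicate number as a block, 15 members were called in DND-41 (15.9% of all genes), 19 in MOLT-4 (15.4%) and 7 for the difference (1.94%), so calls rose over all genes too. Deviations of libraries with the same number had a correlation of 0.0797 over 10257 genes for DND-41 and of 0.143 for MOLT-4, and 2 pairs a line are too few to take the numbers as pairs. Alternatives for single genes were tallied for tested members called in the main fit or in any alternative. A gene that stayed called, or stayed uncalled, is unchanged. A change of sign with no call in either fit also counts as unchanged. For ACBI-1 in DND-41, 105 were unchanged, 56 lost the call and 4 gained it. For ACBI-1 in MOLT-4, 147 were unchanged, 53 lost it, 9 gained it and 1 gained it with the opposite sign. For the difference 86 were unchanged, 16 lost it and 10 gained it. Between the lines 637 were unchanged, 3 lost it and 5 gained it. Depth limits what can be said of PTCRA, SLAMF6, ITM2A, CD5 and CD6 in DND-41.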

Other observations

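The lines also differed in further genes of the pathway, where 49 of the 60 tested in each line were called in DMSO, 32 higher and 17 lower in DND-41, against 61.9% of all genes tested in each line (32.4% higher and 29.5% lower). IL7R, the interleukin-7 receptor chain that supports thymocyte survival, had 559 and 514 CPM in DND-41 and 1.19 and 1.90 CPM in MOLT-4 (8.43 ± 0.21 on the log2 scale). SIT1, a transmembrane adaptor, had 101 and 107 CPM in DND-41 and 11.3 and 11.8 CPM in MOLT-4 (3.16 ± 0.09), and PIK3CD, the delta catalytic subunit of phosphoinositide 3-kinase, had 172 and 186 CPM against 29.6 and 27.8 CPM (2.64 ± 0.08). NFATC2, a calcium-regulated transcription factor that was too low to be tested in DND-41 by itself, ran the other way, with 0 and 3 counts in the DMSO libraries of DND-41 and 1269 and 1315 counts in those of MOLT-4.

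In MOLT-4 RAG1, PTCRA and RAG2 were ordered by replicate number rather than by treatment. No test was made, and how many members or genes share that order was not counted. DNTT was ordered by treatment instead, with 120.4 and 122 CPM with ACBI-1 and 114 and 111 CPM with DMSO. Over 10257 genes the deviations of MOLT-4 libraries with the same number had a correlation of 0.143. RAG1 had 63.7 and 67.4 CPM in the first replicates with ACBI-1 and DMSO, and 102 and 100.1 CPM in the second replicates. PTCRA had 11.96 and 11.2 CPM in the first and 14.3 and 15.5 CPM in the second replicates, and RAG2 had 10.6 and 12.9 CPM in the first and 15.8 and 14.5 CPM in the second. What the replicate number stands for is not given in the sources used here.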
